A study of Homo sapiens with 2 samples.

Results

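The miR-29 family was followed in small RNAs recovered on an affinity resin from lysate of MDA231, an invasive breast cancer line that lacks hormone receptors and HER2 and is often written MDA-MB-231. Its members were taken by name and are hsa-miR-29a-3p, hsa-miR-29b-3p, hsa-miR-29c-3p, hsa-miR-29a-5p, hsa-miR-29b-1-5p and hsa-miR-29c-5p, where hsa stands for human and is left out from here on except where a member is first measured. These are 6 of the 2588 mature miRNA names counted, and all 6 were listed in both libraries. The bait library came from resin loaded with MACC1-AS1-MS2, a long non-coding RNA transcribed in vitro with MS2 hairpins attached. Those hairpins bind the MS2 coat protein, which was fused to maltose-binding protein and held on amylose. The no-bait library came from parental MDA231 lysate handled alike, with None given as its RNA substrate. Lysate of parental cells met the resin for 5 h at 4 °C, and bound material was released with 10 mmol/L maltose. The question was which miRNAs bind to the tagged RNA. The no-bait resin held no RNA of any kind, so effects of MACC1-AS1, of its MS2 hairpins and of loading the resin with RNA cannot be told apart.

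Each group held 1 library, with 1047269 counts with bait and 269716 without, a 3.88-fold difference in depth. No difference reported here has a replicate check, and every interval is a 95% interval that covers counting error only. Levels are in RPM, the counts of a miRNA per 1e+06 miRNA counts of its library, which are shares and carry no scale for the total amount recovered. Testing required a sum of 30 counts or more over the libraries. A higher call needed a bait over no-bait ratio of 2 or more, a lower call one of 0.5 or less, and either needed an interval of the ratio that left out 1. Where a library had 0 counts of a miRNA, 3 counts stood in for them in the ratio but not in its interval. Among tested miRNAs this concerned 8 names at 0 without bait, and it holds their ratios and ranks down. Of 231 miRNAs tested, 39.4% were called higher and 26.8% lower, and the median ratio was 1.46. DESeq2 size factors moved that split to 114 higher and 44 lower, so that 72.2% of called miRNAs were higher, against 59.5% with library totals. Markers of a mesenchymal basal breast line were present in both libraries, all 6 of 6, with a summed share of 53.0% with bait and 60.0% without. Of that, miR-100-5p alone took 29.6% with bait and 45.3% without. Among these markers 1 was called higher, miR-125b-5p, 2 lower and 3 neither. Of 6 epithelial markers 2 were at 0 with bait and 3 without, among them miR-141-3p and miR-205-5p in each library. The list took 0.0181% with bait and 0.0111% without, mostly miR-200b-3p, which had 144 counts with bait and 28 without. Of 6 blood cell markers 2 were at 0 with bait and 3 without, and the list took 0.0432% with bait and 0.0864% without. The part of other cell types in the miR-29 ratios was not tested.

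MicroRNAs guide Argonaute proteins to messenger RNAs, mainly by pairing of the seed, bases 2 to 8 from the 5′ end. The 3p arms of the miR-29 hairpins are the guide strands and are known to repress collagens, elastin and other matrix genes, the DNA methyltransferases DNMT3A and DNMT3B, and the survival factor MCL1. The 5p arms are the passenger strands, which are mostly discarded when Argonaute is loaded. The family is known in breast cancer for restraining the matrix and invasion programme.

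The mature sequences below are those of RefSeq on GRCh38.p14, with the seed in capitals. The 3p arms are shown first because they share 1 seed and nearly all of their length.
miR-29a-3p: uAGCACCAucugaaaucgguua
miR-29b-3p: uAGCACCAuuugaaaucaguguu
miR-29c-3p: uAGCACCAuuugaaaucgguua
The 5p arms are shown because each has a seed of its own.
miR-29a-5p: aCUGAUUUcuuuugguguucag
miR-29b-1-5p: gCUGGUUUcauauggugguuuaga
miR-29c-5p: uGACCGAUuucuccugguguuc
Counted from the 5′ end, miR-29a-3p and miR-29c-3p differ by C10U alone over 22 bases. miR-29b-3p differs from miR-29c-3p by A18G, G21U and U22A and is 1 base longer. Outside the seed the 3p arms therefore part at position 10 and at the 3′ end. No source used here says how the authors divided reads that match more than 1 of these names, so the split between miR-29a-3p and miR-29c-3p is uncertain. None of the other names with a RefSeq sequence shared the seed of the 3p arms, out of 2281 of the 2588 names that had one.

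The family comes from 4 hairpins in 2 clusters. MIR29A (chr7:130876747-130876810) and MIR29B1 (chr7:130877459-130877539) lie on the minus strand of chromosome 7 with 648 bases between them. In GENCODE 29 both lie in introns of the long non-coding gene AC016831.6, and an exon of 1 LINC-PINT transcript overlaps each of them, at MIR29A by its edge alone. MIR29C (chr1:207801852-207801939) and MIR29B2 (chr1:207802443-207802523) lie on the minus strand of chromosome 1 with 503 bases between them, in an exon of 1 transcript of MIR29B2CHG. miR-29b-3p is encoded by both MIR29B1 and MIR29B2 and cannot be assigned to a cluster, while the other members each come from 1 hairpin. These coordinates are those of GRCh38, and no source used here names the authors' build.

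The guide strands took a larger share of the bait library than of the no-bait library. Together the 3p arms had 2456 counts with bait and 112 without, equal to 2345 RPM with bait, against 415 RPM without. The summed ratio was 5.65 (interval 4.67 to 6.89). Almost all of this sum was miR-29a-3p, the most abundant member in both libraries, with 93.9% of 3p counts with bait and 88.4% without.

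hsa-miR-29a-3p had 2306 counts with bait and 99 without, or 2202 RPM (2113 to 2294) with bait and 367 RPM (298 to 447) without. It ranked 35 among all names with bait and 71 without. At the bait share the no-bait library would have held 594 counts of it. The ratio was 5.999 (4.90 to 7.41), which was called higher and ranked 36 of the 231 tested ratios.

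hsa-miR-29b-3p, whose distinctive 3′ end is known from work on its import into the nucleus, had 146 counts with bait and 12 without. Its levels were 139 RPM (118 to 164) with bait and 44.5 RPM (23.0 to 77.7) without. The ratio was 3.13 (1.74 to 6.20), also called higher, and it ranked 74 of 231. Its lower bound fell short of 2, so that a 2-fold difference lay inside the interval.

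hsa-miR-29c-3p, which differs from miR-29a-3p at position 10 alone, was nearly missing. It had 4 counts with bait and 1 without, which is 3.82 RPM (1.04 to 9.78) with bait and 3.71 RPM (0.0939 to 20.7) without. The ratio of 1.03 had an interval of 0.102 to 50.7, so no difference was detectable at this depth, and it was not tested.

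**Figure D1:**
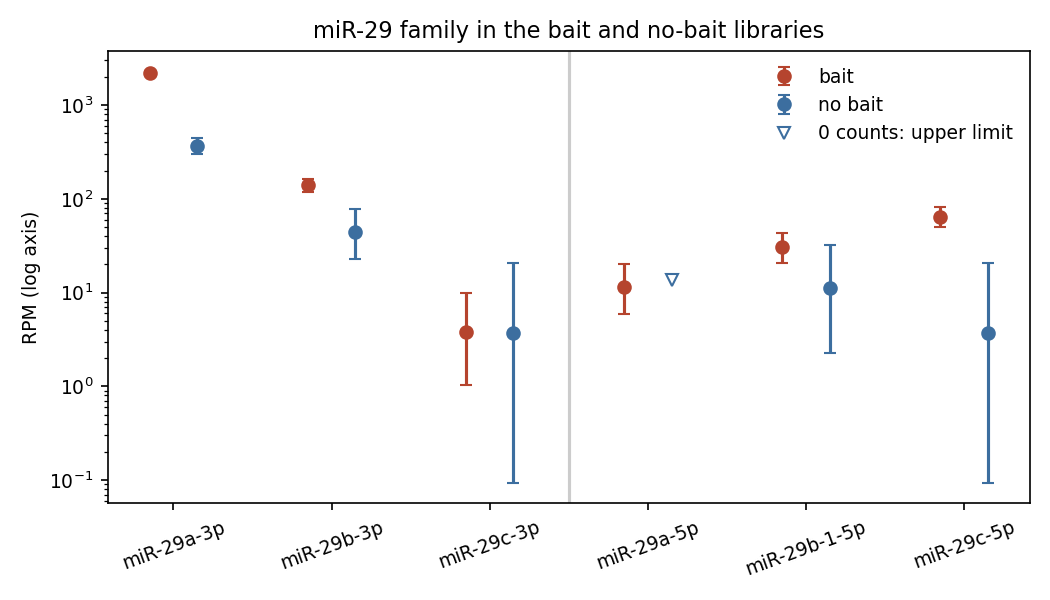
RPM of the 6 miR-29 members on a log axis, 3p arms left of the grey line and 5p arms right of it, in the bait and no-bait libraries (1 library each). Bars are exact 95% counting intervals, and the open triangle marks the upper limit of 13.7 RPM for miR-29a-5p, which had 0 counts without bait; miR-29a-3p, miR-29b-3p and miR-29c-5p show intervals that do not meet.

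The passenger strands were rare, and 1 of them had the highest ratio of the family. hsa-miR-29c-5p had 67 counts with bait and 1 without, or 64.0 RPM (49.6 to 81.2) with bait and 3.71 RPM (0.0939 to 20.7) without. At the bait share the no-bait library would have held 17.3 counts of it. The ratio was 17.3 (2.99 to 692), called higher, and it ranked 9 of 231. Only the lower bound is informative, since the ratio rests on 1 count without bait. The rank of miR-29c-5p depends on the 3 counts put in for 0. For example, miR-324-3p, with 139 counts with bait and 0 without, was placed below it at 11.9.

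hsa-miR-29b-1-5p had 32 counts with bait and 3 without, or 30.6 RPM (20.9 to 43.1) with bait and 11.1 RPM (2.29 to 32.5) without. Its ratio of 2.75 (0.859 to 14.0) passed neither rule. With DESeq2 size factors the ratio was 3.68 with an interval of 1.15 to 18.8, and it was called higher.

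hsa-miR-29a-5p had 12 counts with bait and 0 without, or 11.5 RPM (5.92 to 20.0) with bait, against an upper limit of 13.7 RPM without. The interval of its ratio, computed from the 0 counts, started at 0.716, so no difference was detectable at this depth. Summed, the 5p arms held 111 counts with bait against 4 without, and their ratio was 7.15 (2.71 to 26.7). The other product of the MIR29B2 hairpin, miR-29b-2-5p, was not among the chosen names and had 5 counts with bait and 0 without.

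Of the 6 members, 4 reached 30 counts. Of these 3 were called higher and 0 lower, against 39.4% higher and 26.8% lower among all tested miRNAs, and their median log2 ratio was 2.12 against 0.55 for all tested. With 4 tested members this is a description and not a test. Of the tested members, miR-29b-3p, miR-29b-1-5p and miR-29c-5p reached 30 counts only through the deeper bait library. They had 12, 3 and 1 counts without bait. The filter thus favours miRNAs that are high with bait, among the members and among all tested miRNAs alike. At their counts without bait, miR-29b-1-5p and miR-29c-5p could pass it only with a ratio above the median of all tested miRNAs. The 3 calls held with TMM, where 41.6% of tested miRNAs were higher, and with the 5 most abundant miRNAs taken out of the totals, where 36.8% were. DESeq2 size factors added miR-29b-1-5p, where 49.4% of tested miRNAs were higher. Where the whole interval had to lie beyond 2-fold, 27.7% of tested miRNAs were higher, and 2 members, miR-29a-3p and miR-29c-5p. The scaling moved the median log2 ratio of all tested miRNAs by 0.15 with TMM, by 0.42 with DESeq2 and by -0.13 with the 5 most abundant miRNAs taken out of the totals. Relative to that median the log2 ratios were 2.04 for miR-29a-3p, 1.10 for miR-29b-3p, 0.91 for miR-29b-1-5p and 3.56 for miR-29c-5p, and a common scaling factor does not change these differences.

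**Figure D2:**
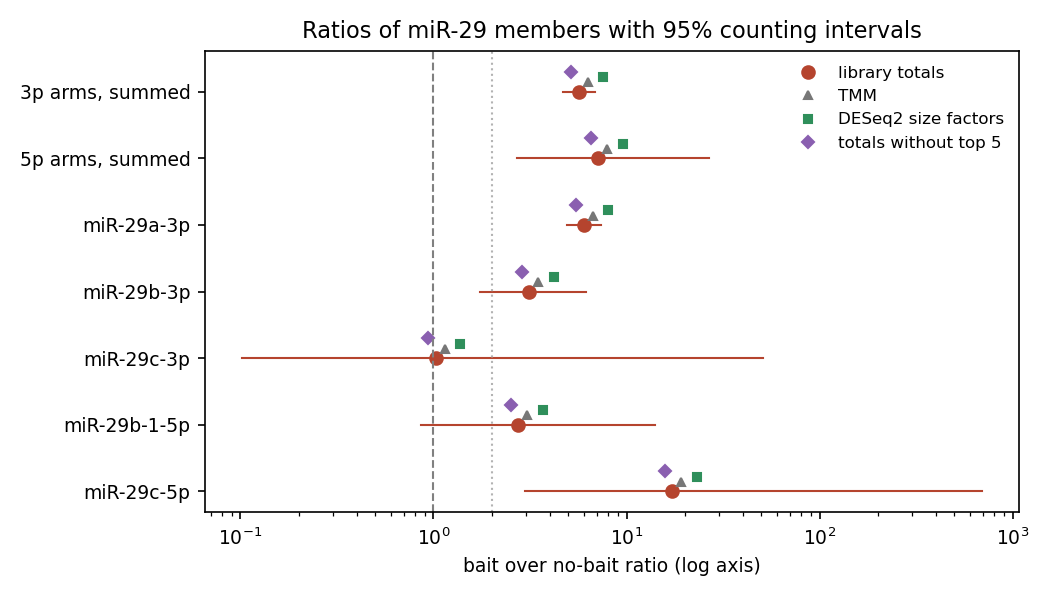
Bait over no-bait ratios on a log axis for the summed arms and for 5 of the members; the dashed line marks 1 and the dotted line 2. Circles are ratios from library totals with their 95% counting intervals, and the other symbols are the same ratios under 3 other scalings; miR-29a-5p, with 0 counts without bait, is left out. The ratio of miR-29a-3p has the shortest interval of the members, and those of miR-29c-3p and miR-29c-5p the longest.

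**Figure D3:**
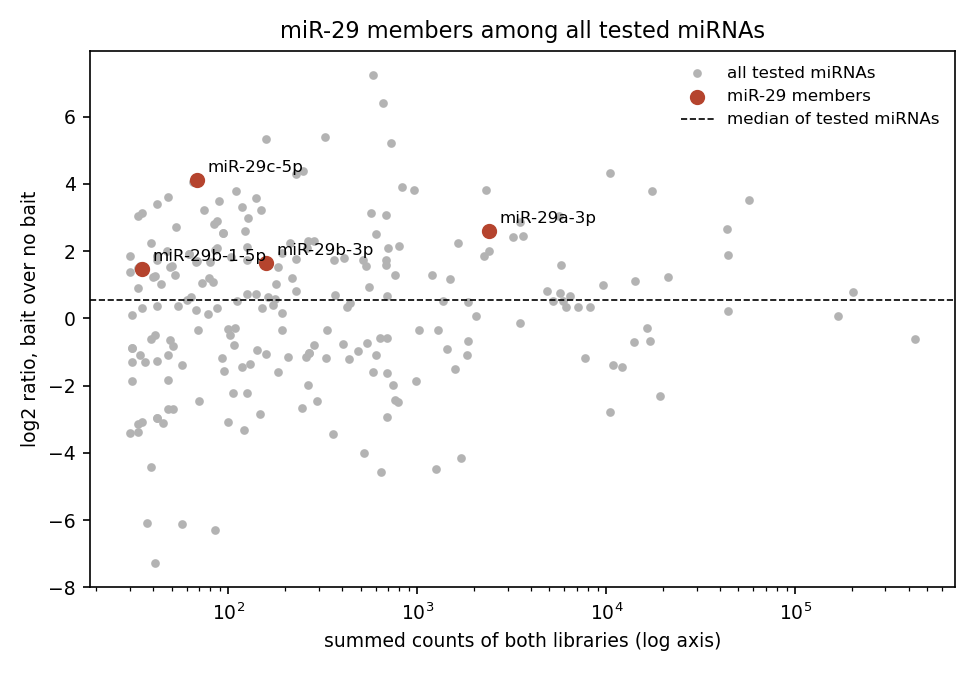
Log2 ratio of bait over no bait against the summed counts of both libraries (log axis) for the 231 tested miRNAs, each a grey point, with the 4 tested miR-29 members in red and labelled. All 4 lie above the dashed line, the median of tested miRNAs at 0.55. Above miR-29c-5p, the highest of them, lie 8 of the 231 tested miRNAs. For miR-29b-1-5p and miR-29c-5p, with 3 and 1 counts without bait, the count minimum for testing allowed no ratio below that median. Their place above the line is therefore not a result.

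Within the bait library the levels ran, from high to low, miR-29a-3p, miR-29b-3p, miR-29c-5p, miR-29b-1-5p, miR-29a-5p and miR-29c-3p. Neighbours in this order had counting intervals that did not meet, except miR-29a-5p and miR-29c-3p. Without bait the order was miR-29a-3p, miR-29b-3p and miR-29b-1-5p, then miR-29c-3p and miR-29c-5p at the same level, and miR-29a-5p at 0. There only miR-29a-3p stood clear of the next member. Ligation and amplification preferences differ between sequences, so an order of levels within a library is less firm than a ratio between libraries. miR-29b-3p carries a further uncertainty. All deposited counts were whole numbers in value, though most were written with decimals. That of miR-29b-3p was written without decimals, as were 24 of 47 detected names with several hairpins with bait and 24 of 41 without. Only 18 of 518 names with 1 hairpin were written so with bait and 7 of 365 without. No source used here says how the counts of such names were combined.

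Ratios between members do not depend on the scaling of the libraries. miR-29a-3p outnumbered miR-29b-3p 15.8-fold with bait and 8.25-fold without. The odds ratio of bait over no bait was 1.91 (0.935 to 3.60), so the ratios of these guide strands did not differ beyond counting error. Summing miR-29a-3p with miR-29c-3p gave 1.90 (0.927 to 3.57). miR-29c-5p over miR-29a-3p gave 2.88 (0.487 to 116) and over miR-29b-3p 5.48 (0.781 to 239), so its higher ratio was not set apart from theirs.

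The 3p arm held most counts of miR-29a and miR-29b, and the 5p arm most counts of miR-29c in the bait library. These are shares of what was recovered from the resin, and no library of whole lysate was among the samples. For miR-29a, 99.5% of counts of both arms were 3p with bait (99.1% to 99.7%) and 100% of 99 counts without (96.3% to 100%). For miR-29b, set against miR-29b-1-5p, the 3p arm took 82.0% with bait (75.6% to 87.4%) and 80.0% without (51.9% to 95.7%). Since miR-29b-3p comes from both hairpins, it was also set against both miR-29b 5p arms. It then took 79.8% with bait (73.2% to 85.3%) and 80.0% without. For miR-29c the 3p arm took 5.63% of 71 counts with bait (1.56% to 13.8%). Without bait this hairpin had 2 counts, 1 from each arm, and the interval of its 3p share ran from 1.26% to 98.7%. The odds ratio of 3p over 5p, bait over no bait, was 0.0663 for miR-29c (0.00075 to 5.85), 1.14 for miR-29b (0.195 to 4.57) and 0.790 for the summed family (0.208 to 2.14). With both miR-29b 5p arms the odds ratio for miR-29b was 0.987 (0.170 to 3.92). A change in arm use between the libraries was therefore not detectable for miR-29c, miR-29b or the summed family at this depth. The share of miR-29c-3p depends on how its reads were told from those of miR-29a-3p, which was not tested.

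**Figure D4:**
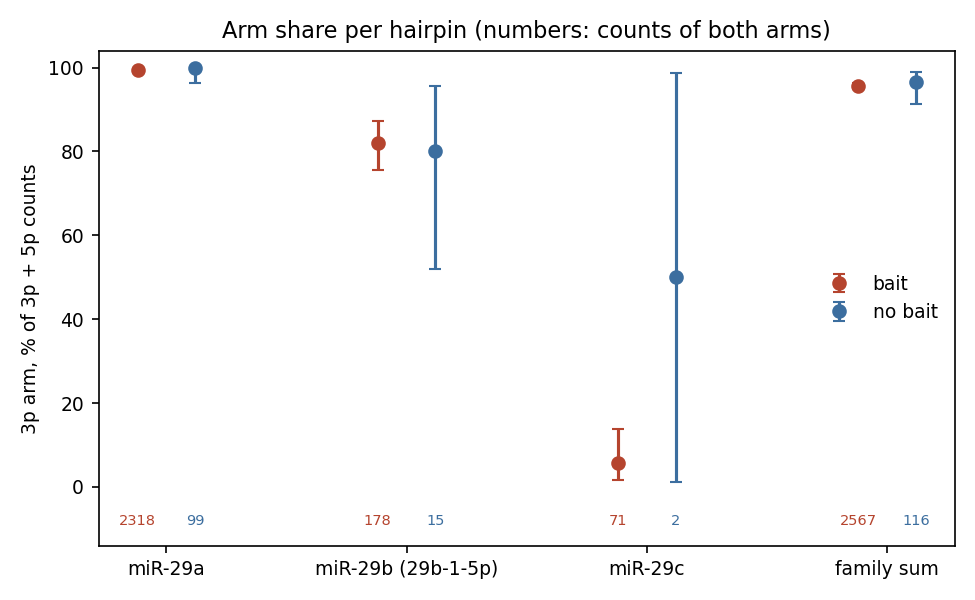
Share of the 3p arm in the counts of both arms, in percent, for miR-29a, for miR-29b with miR-29b-1-5p, for miR-29c and for the family sum, with bait and without (1 library each). Bars are exact 95% intervals and the numbers along the bottom are the counts of both arms; with bait the 3p share is 99.5% for miR-29a and 5.63% for miR-29c.

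The 3p arms were set beside the guide strands of 3 other families. The miR-30 family, known to restrain the matrix growth factor CTGF, had 5 of 5 members called higher, beside 39.4% of all tested miRNAs, and its summed level was 76884 RPM with bait and 15576 RPM without. The odds ratio of the miR-29 3p arms over it was 1.14 (0.944 to 1.40). In the miR-15/16 family, which represses BCL2 and cell cycle genes, miR-16-5p was the tested member, with 659 counts with bait and 20 without. The odds ratio of the miR-29 3p arms over this family was 0.741 (0.447 to 1.18). Both intervals held 1, so the miR-29 ratio did not differ from these families beyond counting error.

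The miR-148 family, here miR-148a-3p, miR-148b-3p and miR-152-3p and known to repress the methyltransferase DNMT1, was closer to level. miR-148b-3p was called higher at 2.42 (1.99 to 2.96), while miR-148a-3p had a ratio of 1.27 and miR-152-3p of 1.89. Its summed ratio was 1.38 (1.31 to 1.46). The odds ratio of the miR-29 3p arms over it was 4.10 (3.36 to 5.04), which is beyond counting error in these 2 libraries.

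**Figure D5:**
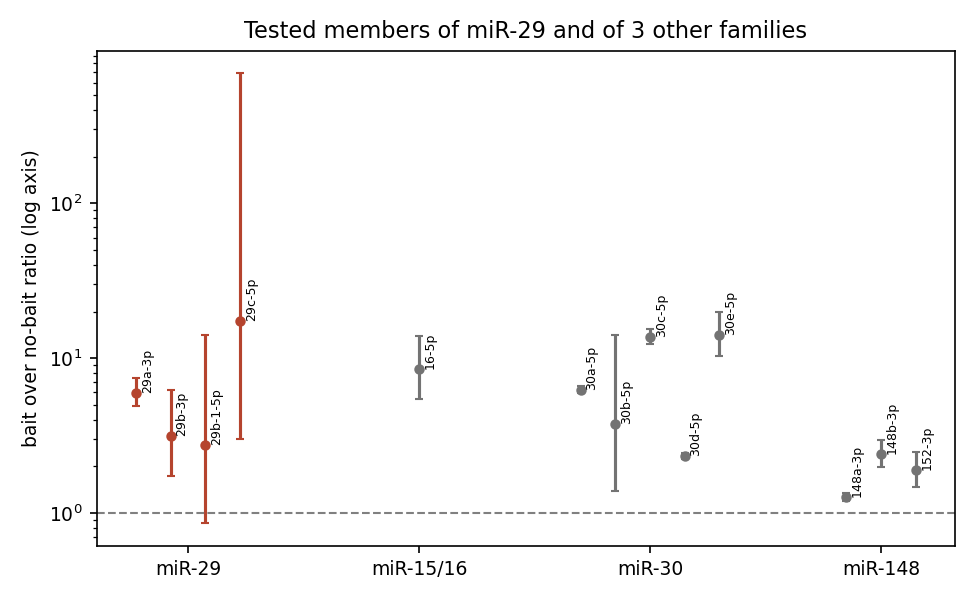
Bait over no-bait ratios on a log axis, with 95% counting intervals, for the tested members of the miR-29 family (red) and of the miR-15/16, miR-30 and miR-148 guide strands (grey); the dashed line marks 1. The miR-29 members lie in the range of the miR-30 members apart from miR-29c-5p at 17.3, and the miR-148 members lie between 1.27 and 2.42.

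Other miRNAs that act on matrix genes were taken as a list of 15, of which 10 were tested. Of these 6 were called higher, 1 lower and 3 neither, beside 39.4% higher and 26.8% lower among all tested miRNAs, with a median log2 ratio of 1.80 against 0.55 for all tested miRNAs. miR-18a-5p, which represses CTGF, had 107 counts with bait and 2 without, and its ratio was 13.8 (3.72 to 115). miR-19a-3p, which represses thrombospondin, had 123 counts with bait and 4 without, at 7.92 (3.02 to 29.5). miR-26a-5p was higher at 3.65 (3.52 to 3.79). miR-199a-5p was called lower at 0.439 (0.283 to 0.692), a call that ended with DESeq2 size factors, and miR-21-5p passed neither rule at 1.72. The others called higher were miR-19b-3p, miR-26b-5p and miR-30c-5p. miR-30c-5p stands both in this list and in the miR-30 family. miR-19a-3p and miR-19b-3p are of 1 family, as are miR-26a-5p and miR-26b-5p, so the 6 calls are not separate observations. miR-18a-5p, miR-19a-3p and miR-19b-3p, the last with 11 counts without bait, reached 30 counts only through the bait library. The list was chosen with earlier results of these data known.

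The list of miRNAs that act on DNA methyltransferases, as the miR-29 guide strands do, had 5 of 6 members tested. Of these miR-148b-3p was called higher and 0 were lower, beside 39.4% higher and 26.8% lower among all tested miRNAs, and the median log2 ratio was 0.67. miR-101-3p had a ratio of 1.59 (1.28 to 1.99) and miR-143-3p of 0.788 (0.612 to 1.02). The number called higher was 2 with TMM factors, where 41.6% of all tested miRNAs were higher, and 3 with DESeq2 size factors, where 49.4% were.

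Tested miRNAs nearest to a member in level over the 2 libraries, by distance on the log2(RPM + 1) scale, were found for each tested member. For miR-29a-3p they were let-7b-5p at 2147 RPM with bait and 538 RPM without, then miR-574-5p and miR-192-5p, with distances of 0.55, 0.60 and 0.61. For miR-29b-3p they were miR-149-5p, miR-185-5p and miR-19b-3p, with distances of 0.30 to 0.47. For miR-29b-1-5p they were miR-330-5p, miR-34a-5p and miR-204-5p, each with 3 counts without bait. miR-29c-5p lay next to miR-652-3p, which had 64 counts with bait and 1 without, and then to miR-4677-3p and miR-576-3p.

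The members were also compared by features of their sequences. The first 5 bases of the 3p arms, UAGCA, also begin 7 other names, of which 2 were tested. miR-16-5p was higher at 8.49 (5.45 to 14.0), and miR-503-5p, with 52 counts with bait and 17 without, had a ratio of 0.788 (0.448 to 1.45). These 2 names had unlike ratios, and the part of the shared start in the ratios was not tested.
miR-16-5p: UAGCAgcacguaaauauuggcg
miR-503-5p: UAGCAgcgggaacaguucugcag
Capitals mark the shared start.

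Matches to the seeds were searched on the sense strand of the annotated MACC1-AS1 transcript of 639 bases (chr7:20141916-20153531, plus strand, 4 exons in GENCODE 29). The reverse complement of bases 2 to 7 of the 3p arms, GGTGCT, had 0 matches, and so had those of the 5p arms, AATCAG for miR-29a-5p, AACCAG for miR-29b-1-5p and TCGGTC for miR-29c-5p. Of 203 tested miRNAs with a RefSeq sequence, 9.36% had a match of bases 2 to 7 and 1.97% a match of bases 2 to 8. The median log2 ratio was 1.74 for the 19 with a match of bases 2 to 7 and 0.51 for those without. For bases 2 to 8 it was 2.60 for 4 miRNAs with a match and 0.53 for those without. The part of seed matches in the ratios was not tested. The isoform used as bait and its MS2 hairpins were not analysed here, and pairing outside the seed was not searched.

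The authors' deposited table gives 4 of the 6 members a p-value under 0.05, from a test that is not named and that with 1 library per group compares libraries rather than conditions. Of 715 names with a count in either library, 20.0% had such a p-value in the authors' deposited table. Only 231 of these names reached 30 counts over both libraries, so this is not a share among names of like abundance. The 4 members were miR-29a-3p, miR-29b-3p, miR-29c-5p and miR-29a-5p. For miR-29a-5p the authors' deposited table has a log2 fold change of 10.16, which rests on a no-bait value of 0 RPM replaced by 0.01. The counts behind it were 12 with bait and 0 without, and the interval computed here did not exclude 1.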

How the data were processed

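Small RNA libraries from resin eluates, 1 with bait and 1 without, were compared by counts of mature miRNAs. The authors deposited whole-number counts per miRNA name and an RPM value, which equalled the count divided by the library total within 0.00994 RPM. BWA is named, with no version, per the submitters' processing notes. No source used here gives the reference, build, trimming or treatment of shared reads. The authors also deposited a table with a log2 fold change and a p-value per miRNA. Ratios were computed from counts and library totals, with exact conditional binomial intervals for ratios, exact conditional intervals for odds ratios and Clopper-Pearson intervals for shares (scipy 1.17.1). PCR reads without molecular identifiers are not independent molecules, so intervals cover counting error only. The calling script was tested on simulated data. With 1 library per group no p-value was computed.

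The members and lists were chosen with earlier results of these data known. Named miRNAs were the members, miR-29b-2-5p, the 3 nearest non-members per tested member, members of the 3 comparison families and 2 lists, cell type markers, and tested names that share the first bases of the 3p arms. Alternatives were edgeR 4.0.16 TMM factors, DESeq2 1.42.0 size factors, totals without the 5 most abundant miRNAs, the deposited RPM, count minimums of 10 and 100 or none, an interval beyond 2-fold, 0.5 counts added, and miR-29a-3p summed with miR-29c-3p.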

Additional observations from a re-analysis of the deposited data

How the results depend on the processing

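Of 153 alternative values of the results above, 20 moved and 0 reversed. Moved means beyond the counting interval of the main value, or beyond 1.5 times a count of calls. A reversal could be counted only for called ratios. The alternatives change these ratios too little to carry them across 1, so the 0 is no check of direction. DESeq2 size factors gave a ratio of 7.57 for the 3p arms and 8.04 for miR-29a-3p, against 5.65 and 5.999 with library totals. The summed ratio of the miR-30 guide strands was 5.49 under TMM, 6.61 under DESeq2 and 4.51 when the 5 most abundant miRNAs were left out of the totals, and that of the miR-148 family was 1.53, 1.85 and 1.26. The change of factor alone makes these shifts. Requiring 100 counts gave 59 higher and 37 lower calls, and no count filter gave 103 lower, since fewer or more names were tested. Of 3 tested members the miR-148 family had 2 higher with TMM, 2 with DESeq2 and 0 with an interval beyond 2-fold. The methyltransferase list, with 5 tested, had 2, 3 and 0 higher under the same settings. Among all tested miRNAs 41.6%, 49.4% and 27.7% were higher under them. The matrix list had 0 lower members with DESeq2, at a minimum of 100 counts and with an interval beyond 2-fold. Among all tested miRNAs 44 of 231, 37 of 146 and 42 of 231 were lower under these settings. Of the miR-29 members, 4 of 4 tested were higher with DESeq2, beside 114 of 231 miRNAs. At a minimum of 10 counts 3 of 5 were higher, beside 95 of 325, and at 100 counts 2 of 2, beside 59 of 146. With no count filter 3 of 6 were higher, beside 95 of 715. With an interval beyond 2-fold 2 of 4 were higher, beside 64 of 231, and under the other settings 3 of 4. The names tested differ between count minimums, so these counts do not measure stability. No paired analysis was possible because each group held 1 library. Precision is limited by the no-bait library, which held 116 counts of the family.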

Other observations

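The base composition of the members was set beside that of the other miRNAs. The 3p arms held 34.8% to 40.9% G and C, and miR-29c-5p, the member with the highest ratio, held 50.0%. The other 5p arms held 36.4% in miR-29a-5p and 41.7% in miR-29b-1-5p. Over 203 tested miRNAs with a RefSeq sequence the median was 47.8%. It was 45.5% for the 81 of them called higher and 52.4% for the 51 called lower. Across these miRNAs, which share the same 2 libraries and are not replicates, Spearman's rho between G and C content and the log2 ratio was -0.30, which is given as a description. Its part in the miR-29 ratios was not tested.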
